A study of Mus musculus with 4 samples.

Results

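CXC chemokines are small secreted proteins that attract leukocytes and are named for their paired cysteines. The 10 genes described here are Cxcl1, Cxcl2, Cxcl3, Cxcl5, Cxcl9, Cxcl10, Cxcl12, Cxcl13, Cxcl14 and Cxcl16. They were taken by gene symbol from the 32285 genes counted, and all 10 were found in each of 4 single-cell RNA libraries. None of them was used to sort cells into classes. The members and the gene lists below were chosen with earlier results of these data known. Counts of them past 2-fold, set beside shares of all genes, are therefore descriptions of a set that was not chosen blind.

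The libraries came from the diaphragm and quadriceps of mdx5cv/Ccr2-/- and mdx5cv mice at 14 weeks of age, with 1 library for each muscle and genotype. The mdx5cv mutation removes dystrophin, so the animals of both genotypes have muscular dystrophy, and the mdx5cv/Ccr2-/- animals also lack the chemokine receptor that inflammatory monocytes use to enter tissue. Mononuclear cells were loaded on the 10x 3′ v3.1 assay, which counts molecules by a unique molecular identifier (UMI) near the 3′ end. The number of animals behind a library is not given in the sources used here, and no wild-type muscle was analysed. With 1 library for each group there is no test of a difference and no spread between animals. The 95% intervals below are exact and cover counting error only.

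The cells kept numbered 6049 in mdx5cv/Ccr2-/- diaphragm and 11193 in mdx5cv diaphragm, and 6362 in mdx5cv/Ccr2-/- quadriceps and 4965 in mdx5cv quadriceps. Their summed UMIs lay between 50145309 and 76427446 for each library, and 104 cell barcodes occurred in more than 1 library. Ccr2, the deleted gene, stood at 8.55 CPM (UMIs of the gene per 1000000 UMIs summed over the cells) in mdx5cv/Ccr2-/- diaphragm against 137 CPM in mdx5cv diaphragm, and at 15.5 CPM in mdx5cv/Ccr2-/- quadriceps against 253 CPM in mdx5cv quadriceps. Cells were assigned to 19 classes by UMIs of marker genes, and 93.7% of cells received 1 class. Fibro-adipogenic progenitors and other fibroblasts (FAPs) made up 64.3% of mdx5cv/Ccr2-/- diaphragm cells, 57.7% of mdx5cv diaphragm cells, 22.4% of mdx5cv/Ccr2-/- quadriceps cells and 20.2% of mdx5cv quadriceps cells. Macrophages were 7.09% of cells in mdx5cv/Ccr2-/- diaphragm against 15.6% in mdx5cv diaphragm, and 13.4% in mdx5cv/Ccr2-/- quadriceps against 23.4% in mdx5cv quadriceps. A level over all cells therefore moves with the mix of classes, and fewer cells of a type and less RNA per cell cannot be told apart there. Levels within a class are given beside it.

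The family falls into groups by receptor. Cxcl1, Cxcl2, Cxcl3 and Cxcl5 act on Cxcr2 and draw neutrophils, and they are classical targets of NF-kB after injury or interleukin-1. Cxcl9 and Cxcl10 are induced by interferon and draw Cxcr3-bearing T and NK cells. Cxcl12 holds Cxcr4-bearing cells in place and is made by stroma and vessels, Cxcl13 guides Cxcr5-bearing B cells, Cxcl14 is an orphan chemokine of stroma and epithelium, and Cxcl16 is a membrane-bound ligand of Cxcr6 that also takes up oxidised lipid.

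Of the 10 genes, 7 lie on chromosome 5 of GRCm38. Cxcl5 (90759360 to 90761624), Cxcl3 (90786103 to 90789600), Cxcl1 (90891241 to 90893115) and Cxcl2 (90903871 to 90905938) follow each other on the plus strand, and Cxcl1 ends 10.756 kb before Cxcl2 begins. Cxcl9 (92321347 to 92328079) and Cxcl10 (92346638 to 92348889) lie 18.559 kb apart on the minus strand, and Cxcl13 (95956951 to 95961068) follows on the plus strand. Cxcl12 is on chromosome 6 (117168535 to 117181367, plus), Cxcl14 on chromosome 13 (56288643 to 56296551, minus) and Cxcl16 on chromosome 11 (70453983 to 70459984, minus). Cxcl10 overlaps Art3 and Cxcl16 overlaps Zmynd15, each on the opposite strand, and whether counting used the strand is not given in the sources used here. Cxcl1, Cxcl2 and Cxcl3 are close copies, and how reads that match more than 1 of them were counted is not given either.

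The stretches just before the RefSeq start of these genes are shown because the neighbours Cxcl1, Cxcl2 and Cxcl3, and Cxcl10 farther along the chromosome, share a motif that was rare among promoters. RefSeq promoters on GRCm38.p6, each 250 bases before to 50 after the RefSeq start of the gene, were matched for 8 of the 10 genes. Cxcl5 and Cxcl16 had no promoter sequence here and were not searched. The NF-kB motif GGAATTTCC, searched on both strands, was present in 4 of the 8, Cxcl1, Cxcl2, Cxcl3 and Cxcl10, and in 104 of 32851 promoters (0.317%). This motif and the interferon-response motif below were shortened after matches in these genes were seen. The longer NF-kB form lacked this Cxcl10 match and the longer interferon-response form lacked the Cxcl9 match, so these shares were not set in advance. The looser form GGANTTNCC, which includes the first, was present in the same 4 and in 3.95% of all promoters. The interferon-response motif GAAANNGAA, on both strands, was present in Cxcl9, Cxcl10 and Cxcl14 and in 8.56% of all promoters, and the STAT motif TTCNNNGAA in Cxcl14 and in 8.30%. TATAAA on the strand of the gene was present in Cxcl3, Cxcl9 and Cxcl13 and in 8.32% of all promoters, and CATAAAA in Cxcl1 and Cxcl2 and in 2.34%. In the sequences below, read 5′ to 3′ on the strand of the gene, capitals mark the NF-kB motifs, the interferon-response motif in Cxcl10 and the TATAAA or CATAAAA box in the others. The windows are chr5:90891115-90891244 (plus) for Cxcl1, chr5:90903769-90903898 (plus) for Cxcl2, chr5:90785971-90786100 (plus) for Cxcl3 and chr5:92348980-92349109 (minus) for Cxcl10.
Cxcl1: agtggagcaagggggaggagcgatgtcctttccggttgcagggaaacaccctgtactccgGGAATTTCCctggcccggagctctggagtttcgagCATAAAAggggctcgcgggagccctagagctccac
Cxcl2: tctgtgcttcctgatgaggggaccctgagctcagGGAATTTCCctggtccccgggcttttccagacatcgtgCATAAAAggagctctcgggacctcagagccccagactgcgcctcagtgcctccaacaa
Cxcl3: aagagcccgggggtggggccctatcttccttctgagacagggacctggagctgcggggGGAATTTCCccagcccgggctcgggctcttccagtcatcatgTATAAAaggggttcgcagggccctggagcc
Cxcl10: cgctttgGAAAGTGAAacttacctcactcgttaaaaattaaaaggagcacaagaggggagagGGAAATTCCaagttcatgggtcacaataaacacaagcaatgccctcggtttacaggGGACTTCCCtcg
Counted from the RefSeq start, which lies 4 bases inside the gene span given above for Cxcl1 and 28 bases inside it for Cxcl2, the NF-kB motif began at -70 in Cxcl1, -96 in Cxcl2 and -72 in Cxcl3. In Cxcl10 the interferon-response motif began at -213, GGAATTTCC, on the opposite strand, at -158 and the looser form at -102. A match is a run of letters and shows no binding in these cells.

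**Figure D1:**
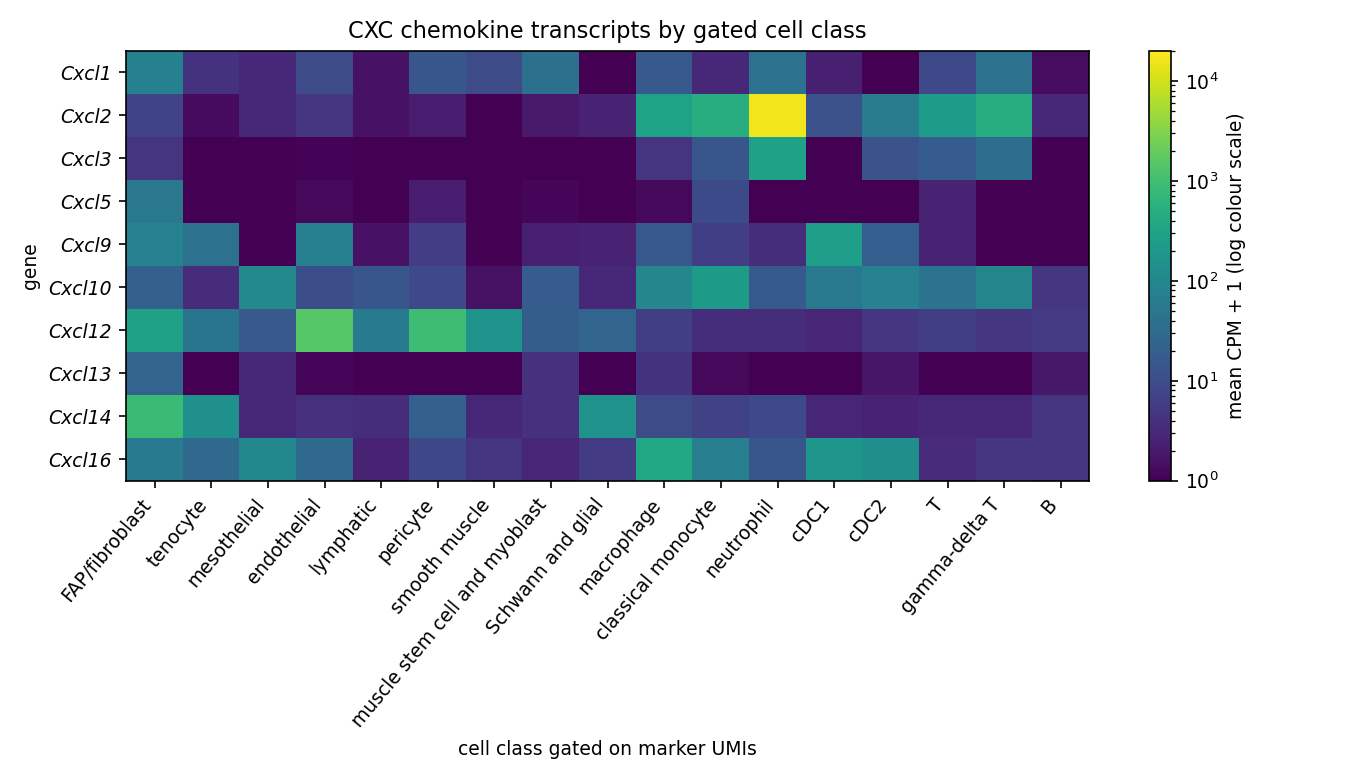
Heat map of the 10 genes (rows) by cell class (columns), with colour for the mean level over libraries with at least 50 cells of the class, in CPM + 1 on a log scale. Neutrophils stand out for Cxcl2, endothelial cells and pericytes for Cxcl12, FAPs for Cxcl14, and macrophages for Cxcl16.

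The chemokines differed in their main sources, and FAPs were the source with most of the UMIs for 5 of them. These shares are pooled over libraries and move with the number of cells caught in each class. Over the 4 libraries FAPs held 94.7% of Cxcl14, 93.5% of Cxcl13, 90.5% of Cxcl5, 86.8% of Cxcl1 and 74.8% of Cxcl9 UMIs. Macrophages held 57.4% of Cxcl16, 51.3% of Cxcl2 and 43.3% of Cxcl10 UMIs, and endothelial cells held 51.0% of Cxcl12 UMIs. Cxcl3 was scarce, with 646 UMIs in all, and was split among FAPs (34.1%), macrophages (25.9%) and neutrophils (20.3%). UMIs near the 3′ end are not scaled by gene length, so each gene is compared across cells and not with the other genes.

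Cxcl1, a neutrophil attractant, was a FAP transcript that was lower in both knockout muscles. In FAPs it stood at 53.2 CPM in mdx5cv/Ccr2-/- diaphragm against 123 CPM in mdx5cv diaphragm, a ratio of 0.432 (0.412 to 0.453). In quadriceps FAPs it stood at 15.2 CPM in mdx5cv/Ccr2-/- against 109.9 CPM in mdx5cv, a ratio of 0.138 (0.122 to 0.156). Both knockout libraries were therefore the lower of their pair, and the quadriceps knockout was the lowest of the 4. The share of FAPs with a Cxcl1 UMI was 16.5% in mdx5cv/Ccr2-/- diaphragm against 21.3% in mdx5cv diaphragm, and 8.09% in mdx5cv/Ccr2-/- quadriceps against 14.4% in mdx5cv quadriceps. Thinned to 2000 UMIs per cell these shares were 7.50% against 11.9% and 2.45% against 5.30%, so the order held at equal depth. Endothelial cells, used as a background class, had a Cxcl1 UMI in 3.80% and 2.28% of cells in the knockout and mdx5cv diaphragm, and in 1.32% and 1.56% in the knockout and mdx5cv quadriceps. The median depth of those endothelial cells ran from 2552.5 to 4705 UMIs, against 6399.5 to 13258 UMIs for FAPs.

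How Cxcl1 was spread over FAPs differed between the muscles. In diaphragm 50% of its FAP UMIs lay in 93 cells of mdx5cv/Ccr2-/- and 166 cells of mdx5cv. In quadriceps 50% lay in 17 cells of mdx5cv/Ccr2-/- and 9 cells of mdx5cv, and a single mdx5cv cell held 236 of 1688 UMIs. The counting intervals take no account of such clumping. Leaving out the 5 highest cells of each library, a check added after the data were seen, gave a quadriceps ratio of 0.170 in FAPs. Outside FAPs, muscle stem cells and myoblasts had a steadier level, at 31.5 CPM in mdx5cv/Ccr2-/- diaphragm against 39.7 CPM in mdx5cv diaphragm, and 35.01 CPM in mdx5cv/Ccr2-/- quadriceps against 44.9 CPM in mdx5cv quadriceps.

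Cxcl5, another Cxcr2 ligand, was high in the mdx5cv quadriceps library alone of the 4. Over all cells it stood at 4.18 CPM in mdx5cv/Ccr2-/- diaphragm against 3.28 CPM in mdx5cv diaphragm, and at 1.80 CPM in mdx5cv/Ccr2-/- quadriceps against 65.0 CPM in mdx5cv quadriceps. In FAPs the quadriceps values were 4.98 CPM in mdx5cv/Ccr2-/- against 194 CPM in mdx5cv, a ratio of 0.0257 (0.0209 to 0.0313). The diaphragm FAP values were 5.63 CPM in mdx5cv/Ccr2-/- against 3.57 CPM in mdx5cv, a ratio of 1.58 (1.29 to 1.92). The mdx5cv quadriceps library thus stood far above the others, which lay close together. A Cxcl5 UMI was found in 1.98% of mdx5cv/Ccr2-/- diaphragm FAPs against 1.19% of mdx5cv diaphragm FAPs, and in 2.11% of mdx5cv/Ccr2-/- quadriceps FAPs against 11.3% of mdx5cv quadriceps FAPs. Macrophages, as background, had a Cxcl5 UMI in at most 0.430% of cells in any library.

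The mdx5cv quadriceps signal sat in a small set of fibroblasts. Ccl7 Ptx3 fibroblasts were FAPs with at least 3 of the genes Ccl7, Ptx3, Ccl2, Il6 and Has1. FAPs with a higher marker score for another subclass were counted there instead. Ccl7 Ptx3 fibroblasts numbered 39 in mdx5cv/Ccr2-/- diaphragm, 102 in mdx5cv diaphragm, 30 in mdx5cv/Ccr2-/- quadriceps and 104 in mdx5cv quadriceps. Those 104 cells held 2718 of the 2976 Cxcl5 UMIs of mdx5cv quadriceps FAPs. Within the subclass Cxcl5 stood at 78.9 CPM in mdx5cv/Ccr2-/- diaphragm against 57.4 CPM in mdx5cv diaphragm, and at 67.7 CPM in mdx5cv/Ccr2-/- quadriceps against 1104 CPM in mdx5cv quadriceps. Fewer cells of the subclass and a lower level per cell therefore went together in the quadriceps. Cells with at least 10 Cxcl5 UMIs numbered 46 in mdx5cv quadriceps FAPs, 40 of them Ccl7 Ptx3 fibroblasts, and 3 in mdx5cv/Ccr2-/- quadriceps FAPs. Without the 5 highest cells the quadriceps FAP ratio was 0.0204.

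Cxcl1 was also highest in this subclass, at 243 CPM in mdx5cv/Ccr2-/- diaphragm against 783 CPM in mdx5cv diaphragm, and at 155 CPM in mdx5cv/Ccr2-/- quadriceps against 572.5 CPM in mdx5cv quadriceps. The ratios within it were 0.311 (0.260 to 0.369) in diaphragm and 0.271 (0.216 to 0.337) in quadriceps. The quadriceps Cxcl1 UMIs were largely there, with 25 of the 33 mdx5cv quadriceps FAPs that had at least 10 Cxcl1 UMIs. In mdx5cv diaphragm 23 of 146 such cells were Ccl7 Ptx3 fibroblasts and 73 were Inmt fibroblasts, the most numerous subclass there. Among FAPs with a Cxcl5 UMI, Cxcl1 was also found in 40.3% in mdx5cv/Ccr2-/- diaphragm, 49.4% in mdx5cv diaphragm, 9 of 30 cells in mdx5cv/Ccr2-/- quadriceps and 57.5% in mdx5cv quadriceps. Among FAPs without one the shares were 16.0%, 21.0%, 7.61% and 8.90% in the same order. Cells with a Cxcl5 UMI were deeper, with median depths of 9180 to 23956 UMIs against 6376 to 13101.5 UMIs, and the part of depth in this co-detection was not tested.

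**Figure D2:**
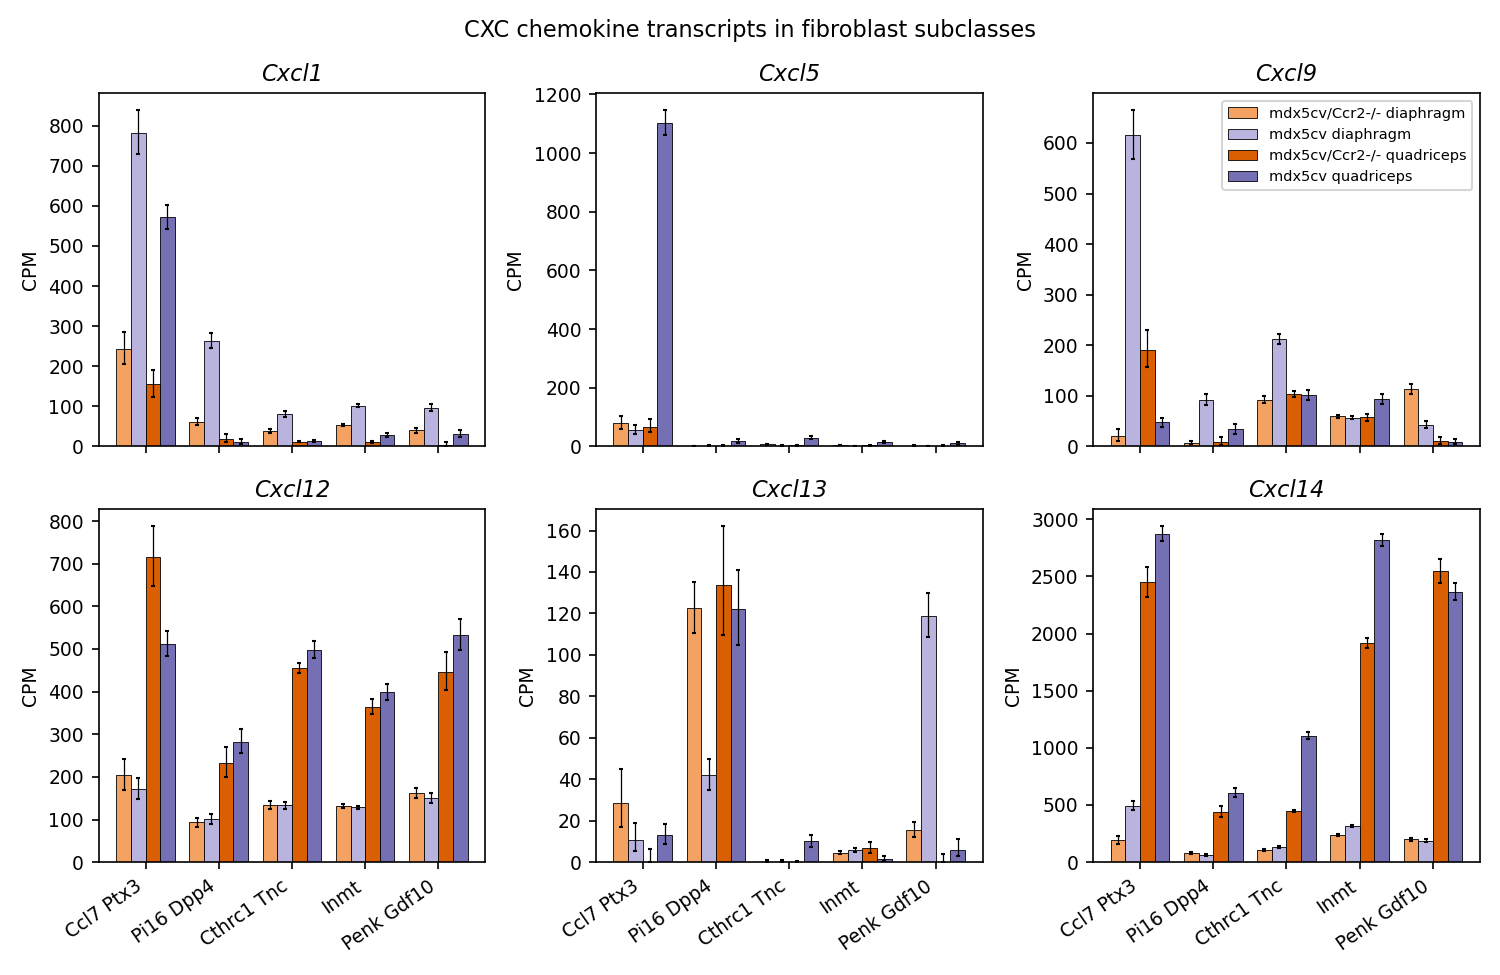
Bars give CPM of 6 genes in 5 FAP subclasses, coloured by library, with exact 95% Poisson error bars that cover counting error only. Cxcl5 reaches 1104 CPM in Ccl7 Ptx3 fibroblasts of mdx5cv quadriceps, and Cxcl12 and Cxcl14 are lower in diaphragm than in quadriceps in all 5 subclasses. In mdx5cv diaphragm 1 cell held 438 of 643 Cxcl9 UMIs of Ccl7 Ptx3 fibroblasts and 1 cell held 478 of 486 Cxcl13 UMIs of Penk Gdf10 fibroblasts.

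Cxcl2, a neutrophil attractant that neutrophils and macrophages also make, had its highest level in neutrophils. Neutrophil-gated cells numbered 12 in each diaphragm library, 67 in mdx5cv/Ccr2-/- quadriceps and 71 in mdx5cv quadriceps. In quadriceps neutrophils Cxcl2 stood at 11225 CPM in mdx5cv/Ccr2-/- against 21356 CPM in mdx5cv, a ratio of 0.526 (0.499 to 0.554). Neutrophils held 17.1% of the Cxcl2 UMIs of mdx5cv/Ccr2-/- diaphragm, 2.89% of mdx5cv diaphragm, 53.1% of mdx5cv/Ccr2-/- quadriceps and 61.7% of mdx5cv quadriceps. The neutrophil share of Cxcl2 UMIs was thus higher in quadriceps, where more neutrophils were found.

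In macrophages Cxcl2 separated the muscles more than the genotypes. It stood at 458.5 CPM in mdx5cv/Ccr2-/- diaphragm against 576 CPM in mdx5cv diaphragm, and at 124.5 CPM in mdx5cv/Ccr2-/- quadriceps against 94.0 CPM in mdx5cv quadriceps. The diaphragm over quadriceps ratio was 3.68 (3.44 to 3.94) in mdx5cv/Ccr2-/- and 6.13 (5.80 to 6.49) in mdx5cv. The genotype ratios were 0.796 (0.758 to 0.835) in diaphragm and 1.33 (1.23 to 1.43) in quadriceps. Both diaphragm libraries were above both quadriceps libraries, in the lipid-associated and the resident macrophage subclasses as well. A Cxcl2 UMI was found in 22.1% of mdx5cv/Ccr2-/- diaphragm macrophages against 27.2% in mdx5cv diaphragm, and in 13.4% in mdx5cv/Ccr2-/- quadriceps against 13.3% in mdx5cv quadriceps. Thinned, the shares were 15.5%, 21.7%, 7.43% and 7.05% in the same order. Endothelial cells had a Cxcl2 UMI in 0.482% to 2.14% of cells.

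Cxcl2 in macrophages was also concentrated. The 314 macrophages with at least 10 Cxcl2 UMIs held 10674 of 12445 UMIs (85.8%), and they made up 10.7% of macrophages in mdx5cv/Ccr2-/- diaphragm, 10.6% in mdx5cv diaphragm, 4.24% in mdx5cv/Ccr2-/- quadriceps and 4.04% in mdx5cv quadriceps. The share of such cells was alike in the genotypes and higher in diaphragm. Genes of a list of 15 that respond to cell dissociation were also apart between the muscles. In macrophages 13 of the 15 were at least 2-fold higher in diaphragm than in quadriceps in mdx5cv/Ccr2-/- and 14 in mdx5cv, with median log2 ratios of 1.69 and 1.51, beside 3.32% and 2.98% of all genes. Median log2 ratios, here and below, were taken on CPM + 5, while the ratios printed for single genes have nothing added. Between genotypes none of the 15 was 2-fold apart in macrophages, with medians of -0.19 in diaphragm and -0.41 in quadriceps. The part of this list in the Cxcl2 values was not tested. In resident macrophages of the quadriceps the genotypes differed, with 29.1 CPM in mdx5cv/Ccr2-/- against 123 CPM in mdx5cv, a ratio of 0.238 (0.161 to 0.341) on 33 and 307 UMIs.

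Cxcl3, the least abundant member, was counted mainly in the mdx5cv quadriceps library. Over all cells it had 113 UMIs (1.88 CPM) in mdx5cv/Ccr2-/- diaphragm against 82 UMIs (1.07 CPM) in mdx5cv diaphragm, and 40 UMIs (0.678 CPM) in mdx5cv/Ccr2-/- quadriceps against 411 UMIs (8.20 CPM) in mdx5cv quadriceps. A single Ccl7 Ptx3 fibroblast held 200 of those 411 UMIs. Neutrophils held 14 UMIs in mdx5cv/Ccr2-/- quadriceps and 99 in mdx5cv quadriceps, a ratio of 0.141 (0.0745 to 0.248). Quadriceps FAPs had 0 UMIs in mdx5cv/Ccr2-/- against 217 in mdx5cv, at least 97.4-fold lower with a floor of 3 UMIs for the library, but 4 cells made up that 217.

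**Figure D3:**
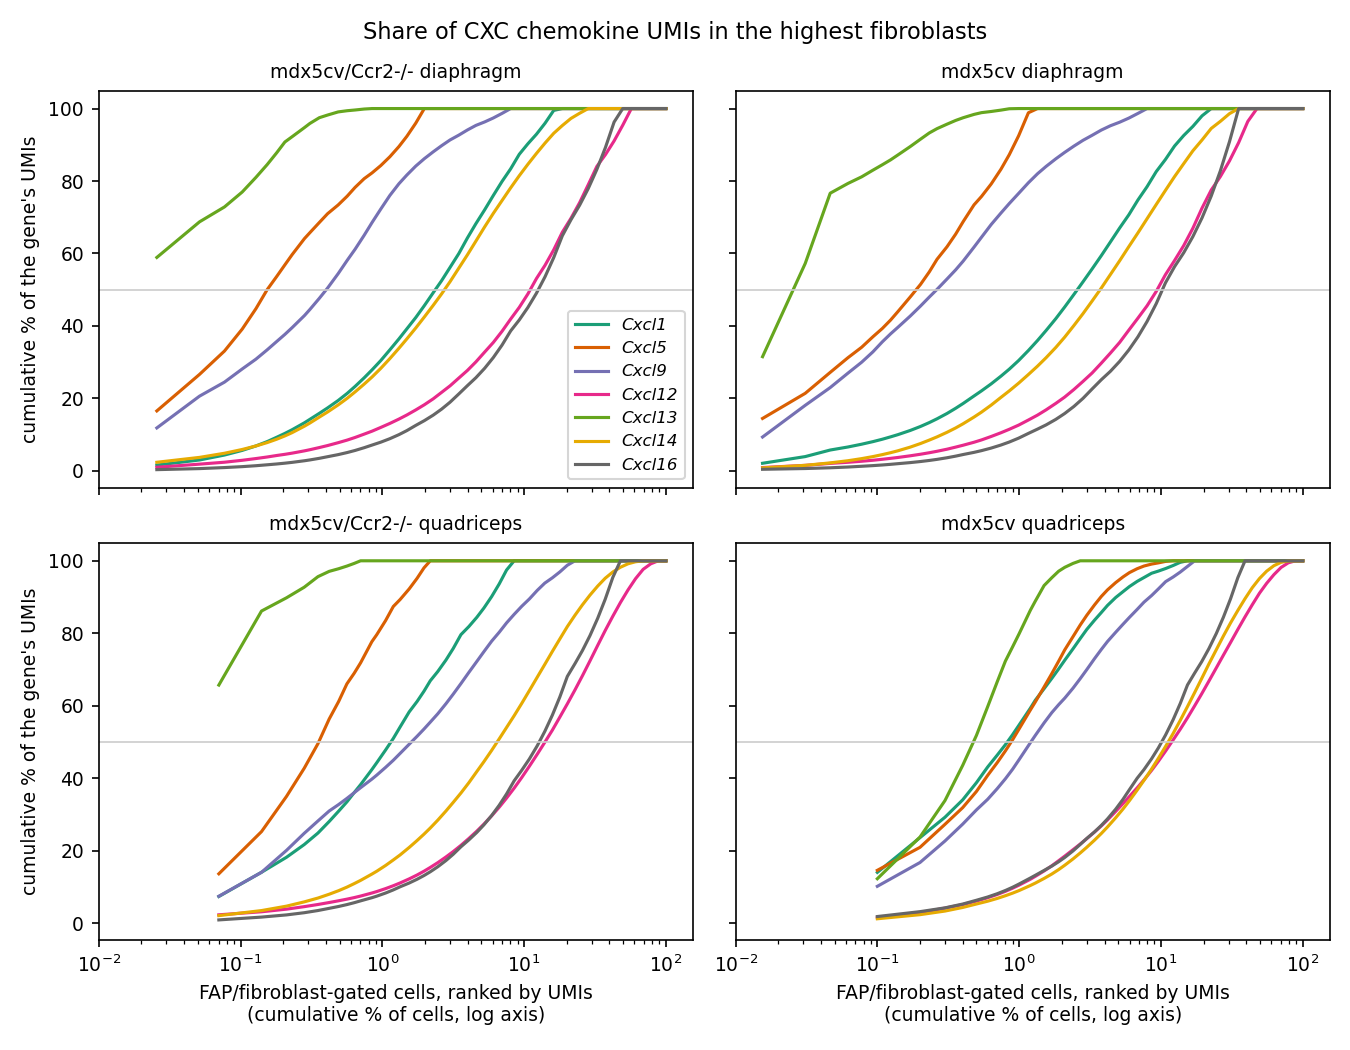
Cumulative percent of a gene's UMIs in FAPs (vertical axis) against the percent of FAPs ranked by UMIs of that gene (horizontal log axis), 1 panel for each library, with a line at 50%. Curves to the left belong to genes held by few cells: 50% of Cxcl13 UMIs sat in 1 to 5 cells of each library, while Cxcl12 and Cxcl16 needed 102 cells or more.

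Cxcl9, an interferon-induced attractant of T cells, was present in rare strongly positive cells of several classes. Over all cells it stood at 51.4 CPM in mdx5cv/Ccr2-/- diaphragm against 76.4 CPM in mdx5cv diaphragm, and at 50.8 CPM in mdx5cv/Ccr2-/- quadriceps against 39.9 CPM in mdx5cv quadriceps. The genotype ratio was below 1 in diaphragm, 0.673 (0.644 to 0.703), and above 1 in quadriceps, 1.27 (1.20 to 1.35). FAPs repeated this with ratios of 0.664 in diaphragm and 1.21 in quadriceps. In FAPs 204 cells with at least 10 UMIs, 1.60% of FAPs, held 7921 of 10416 UMIs (76.0%). Of those cells, 101 were Inmt fibroblasts and 72 were Cthrc1 Tnc fibroblasts, a subclass gated on matrix and activation genes. In Cthrc1 Tnc fibroblasts Cxcl9 stood at 92.1 CPM in mdx5cv/Ccr2-/- diaphragm against 212 CPM in mdx5cv diaphragm, where 1 cell held 411 of 1587 UMIs, and at 103 CPM in mdx5cv/Ccr2-/- quadriceps against 101 CPM in mdx5cv quadriceps.

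In endothelial and immune cells the diaphragm knockout was the low library for Cxcl9. Endothelial cells had 46.4 CPM in mdx5cv/Ccr2-/- diaphragm against 113 CPM in mdx5cv diaphragm, a ratio of 0.412 (0.336 to 0.503), and 54.0 CPM in mdx5cv/Ccr2-/- quadriceps against 66.8 CPM in mdx5cv quadriceps. Macrophages had 11 UMIs (2.32 CPM) in mdx5cv/Ccr2-/- diaphragm against 453 UMIs (35.6 CPM) in mdx5cv diaphragm, a ratio of 0.0651 (0.0323 to 0.118). The 5 highest of the 1744 mdx5cv cells held 68.4% of those 453 UMIs, and the 429 mdx5cv/Ccr2-/- cells had 3 with a UMI, so the ratio was 0 without the 5 highest cells of each. Type 1 conventional dendritic cells (cDC1), cross-presenting cells, had 4 UMIs (5.74 CPM) in mdx5cv/Ccr2-/- diaphragm against 309 UMIs (288 CPM) in mdx5cv diaphragm, from 42 and 112 cells. In quadriceps cDC1 the values were 204 CPM in mdx5cv/Ccr2-/-, with 142 of 143 UMIs in 1 cell, and 87.5 CPM in mdx5cv. The dendritic values thus rested on a handful of cells.

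Cxcl10, the second interferon-induced ligand, was lower in the knockout in both muscles over all cells. It stood at 22.0 CPM in mdx5cv/Ccr2-/- diaphragm against 56.5 CPM in mdx5cv diaphragm, a ratio of 0.389 (0.365 to 0.413), and at 33.0 CPM in mdx5cv/Ccr2-/- quadriceps against 48.7 CPM in mdx5cv quadriceps, a ratio of 0.678 (0.638 to 0.720). Within macrophages the difference was smaller, with 90.7 CPM in mdx5cv/Ccr2-/- diaphragm against 115 CPM in mdx5cv diaphragm, and 81.6 CPM in mdx5cv/Ccr2-/- quadriceps against 94.8 CPM in mdx5cv quadriceps. In FAPs the diaphragm libraries had 14.3 CPM in mdx5cv/Ccr2-/- against 40.8 CPM in mdx5cv, a ratio of 0.351 (0.320 to 0.384). Quadriceps FAPs had 11.3 CPM in mdx5cv/Ccr2-/- against 13.4 CPM in mdx5cv, an interval of the ratio of 0.694 to 1.02. Classical monocytes, the cells that depend most on Ccr2, had 353 CPM in 92 mdx5cv diaphragm cells and 90.4 CPM in 223 mdx5cv quadriceps cells. The knockout held only 2 such cells in diaphragm and 19 in quadriceps. FAPs with a Cxcl9 UMI had a Cxcl10 UMI in 6.80% to 10.5% of cells, against 1.62% to 2.37% of FAPs without one. The FAPs with a Cxcl9 UMI were deeper in each library, with median depths of 10200 to 18664 UMIs against 6211 to 11836.5 UMIs, and the part of depth was not tested.

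The list of 14 interferon-response genes gives the setting of Cxcl9 and Cxcl10. In macrophages 7 of 14 were at least 2-fold lower in mdx5cv/Ccr2-/- than in mdx5cv in diaphragm and 8 of 14 in quadriceps, with none 2-fold higher. The median log2 ratios were -0.85 in diaphragm and -1.07 in quadriceps, beside 0.06 and 0.07 over all genes measured. In FAPs none of 13 measured passed 2-fold in either muscle, with medians of -0.30 in diaphragm and -0.22 in quadriceps. These counts stand beside 2.29% of all genes 2-fold lower in diaphragm macrophages and 1.95% in quadriceps macrophages. Macrophage Cxcl10 had ratios of 0.791 in diaphragm and 0.861 in quadriceps, and macrophage Cxcl9 had ratios of 0.0651 in diaphragm and 1.12 in quadriceps.

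Cxcl12, the ligand of Cxcr4, was a vascular and stromal transcript that differed little between genotypes within a class. In endothelial cells it stood at 1890.3 CPM in mdx5cv/Ccr2-/- diaphragm against 1591 CPM in mdx5cv diaphragm, a ratio of 1.19 (1.14 to 1.24), and at 1197 CPM in mdx5cv/Ccr2-/- quadriceps against 1306 CPM in mdx5cv quadriceps, a ratio of 0.916 (0.892 to 0.940). Capillary cells had 1998 CPM in mdx5cv/Ccr2-/- diaphragm against 1655 CPM in mdx5cv diaphragm, and 1311 CPM in mdx5cv/Ccr2-/- quadriceps against 1431 CPM in mdx5cv quadriceps. Venous cells lay below capillary and arterial cells in each library, between 375 and 567 CPM. They were few in diaphragm, with 20 in mdx5cv/Ccr2-/- and 11 in mdx5cv, against 179 in mdx5cv/Ccr2-/- quadriceps and 70 in mdx5cv quadriceps. Quadriceps pericytes, the contractile cells on capillaries, had 849.5 CPM in 163 mdx5cv/Ccr2-/- cells against 977 CPM in 95 mdx5cv cells. Macrophages, as background, had a Cxcl12 UMI in 2.35% to 5.18% of cells, against 82.6% to 89.5% of endothelial cells.

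FAP Cxcl12 separated the muscles. It stood at 132 CPM in mdx5cv/Ccr2-/- diaphragm against 428 CPM in mdx5cv/Ccr2-/- quadriceps, a ratio of 0.309 (0.299 to 0.320). The mdx5cv values were 129 CPM in diaphragm against 447 CPM in quadriceps, a ratio of 0.289 (0.279 to 0.299). The genotype ratios in FAPs were 1.02 (0.988 to 1.06) in diaphragm and 0.957 (0.927 to 0.988) in quadriceps, far smaller than the gap between muscles. Endothelial cells went the other way, with diaphragm over quadriceps ratios of 1.58 (1.53 to 1.63) in mdx5cv/Ccr2-/- and 1.22 (1.17 to 1.27) in mdx5cv. Over all cells Cxcl12 was higher in the knockout, at 218 CPM in mdx5cv/Ccr2-/- diaphragm against 136 CPM in mdx5cv diaphragm, and at 439.5 CPM in mdx5cv/Ccr2-/- quadriceps against 348 CPM in mdx5cv quadriceps. Endothelial cells were 12.6% of mdx5cv/Ccr2-/- diaphragm cells against 6.27% in mdx5cv diaphragm, and 35.8% in mdx5cv/Ccr2-/- quadriceps against 27.1% in mdx5cv quadriceps.

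Cxcl14, the orphan chemokine, was the member with the largest share of its UMIs in FAPs and was several-fold lower in diaphragm. In FAPs it stood at 200.5 CPM in mdx5cv/Ccr2-/- diaphragm against 262 CPM in mdx5cv diaphragm, a ratio of 0.765 (0.744 to 0.786). In quadriceps FAPs it stood at 954 CPM in mdx5cv/Ccr2-/- against 1980.4 CPM in mdx5cv, a ratio of 0.482 (0.473 to 0.490). The diaphragm over quadriceps ratio was 0.210 (0.205 to 0.215) in mdx5cv/Ccr2-/- and 0.132 (0.130 to 0.135) in mdx5cv. All 4 libraries were thus apart, and both quadriceps libraries lay above both diaphragm libraries. A Cxcl14 UMI was found in 27.6% of mdx5cv/Ccr2-/- diaphragm FAPs against 33.2% in mdx5cv diaphragm, and in 64.8% in mdx5cv/Ccr2-/- quadriceps against 79.7% in mdx5cv quadriceps. Thinned, the shares were 15.1% against 21.2% and 43.6% against 67.0%. Endothelial cells, as background, had one in 0.142% to 2.60% of cells.

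The quadriceps genotype gap in Cxcl14 was not the same in every fibroblast subclass. Penk Gdf10 fibroblasts, gated on these and Hmcn2 and Meox1, had 2547 CPM in mdx5cv/Ccr2-/- quadriceps against 2368 CPM in mdx5cv quadriceps, and Ccl7 Ptx3 fibroblasts had 2448 CPM in mdx5cv/Ccr2-/- quadriceps against 2873 CPM in mdx5cv quadriceps. Inmt fibroblasts had 1916 CPM in mdx5cv/Ccr2-/- quadriceps against 2818 CPM in mdx5cv quadriceps, a ratio of 0.680 (0.661 to 0.699). Cthrc1 Tnc fibroblasts, the lowest of the 4, had 448 CPM in mdx5cv/Ccr2-/- quadriceps against 1105 CPM in mdx5cv quadriceps, a ratio of 0.405 (0.390 to 0.421). Cthrc1 Tnc fibroblasts were 619 of 1422 FAPs in mdx5cv/Ccr2-/- quadriceps and 191 of 1001 in mdx5cv quadriceps, so this subclass was also a larger share of FAPs in the knockout. With every cell weighted alike the quadriceps FAP ratio was 0.567, inside 2-fold. Tenocytes had 145 CPM in 256 mdx5cv/Ccr2-/- quadriceps cells against 284 CPM in 188 mdx5cv quadriceps cells.

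Cxcl13, the B cell attractant, came from a handful of fibroblasts. FAPs had 34.2 CPM in mdx5cv/Ccr2-/- diaphragm against 38.3 CPM in mdx5cv diaphragm, and 6.62 CPM in mdx5cv/Ccr2-/- quadriceps against 18.1 CPM in mdx5cv quadriceps. The 43 FAPs with at least 10 UMIs held 3563 of 3778 UMIs (94.3%), and 19 of the 43 were Pi16 Dpp4 fibroblasts, a subclass with markers of adventitial progenitors. By library these were 8 of 14 in mdx5cv/Ccr2-/- diaphragm, 3 of 16 in mdx5cv diaphragm, 1 of 2 in mdx5cv/Ccr2-/- quadriceps and 7 of 11 in mdx5cv quadriceps. FAPs of no subclass held more of the diaphragm UMIs, with 892 of 1506 in mdx5cv/Ccr2-/- and 1048 of 1857 in mdx5cv, against 396 and 126 in Pi16 Dpp4 fibroblasts. Single cells set the levels: 1 cell held 887 of 1506 FAP UMIs in mdx5cv/Ccr2-/- diaphragm, 1 cell held 585 of 1857 in mdx5cv diaphragm, and 1 cell held 90 of 137 in mdx5cv/Ccr2-/- quadriceps. The quadriceps FAP ratio of 0.366 (0.296 to 0.451) was 0.0333 without the 5 highest cells and 0.681 with every cell weighted alike. In Pi16 Dpp4 fibroblasts Cxcl13 stood at 122.5 CPM in mdx5cv/Ccr2-/- diaphragm against 41.8 CPM in mdx5cv diaphragm, and at 134 CPM in mdx5cv/Ccr2-/- quadriceps against 122 CPM in mdx5cv quadriceps. Between 4.79% and 14.8% of the cells of that subclass had a Cxcl13 UMI.

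Cxcl16, the membrane-bound ligand of Cxcr6, was a macrophage transcript found in most macrophages. In macrophages it stood at 388 CPM in mdx5cv/Ccr2-/- diaphragm against 446 CPM in mdx5cv diaphragm, a ratio of 0.869 (0.824 to 0.916), and at 374 CPM in mdx5cv/Ccr2-/- quadriceps against 278 CPM in mdx5cv quadriceps, a ratio of 1.34 (1.29 to 1.40). A UMI was found in 83.7% of mdx5cv/Ccr2-/- diaphragm macrophages against 78.5% in mdx5cv diaphragm, and in 83.6% in mdx5cv/Ccr2-/- quadriceps against 71.1% in mdx5cv quadriceps. Lipid-associated macrophages, gated on Spp1, Gpnmb, Fabp5, Syngr1 and Lgals3, were above resident macrophages in each library. They had 505 CPM in mdx5cv/Ccr2-/- diaphragm against 486 CPM in mdx5cv diaphragm, and 388 CPM in mdx5cv/Ccr2-/- quadriceps against 314.5 CPM in mdx5cv quadriceps. Resident macrophages had 257 CPM in mdx5cv/Ccr2-/- diaphragm against 252 CPM in mdx5cv diaphragm, and 201 CPM in mdx5cv/Ccr2-/- quadriceps against 124.5 CPM in mdx5cv quadriceps. Migratory dendritic cells, few in number, reached 717 CPM in 20 mdx5cv/Ccr2-/- diaphragm cells against 952 CPM in 40 mdx5cv diaphragm cells. Pericytes, as background, had a Cxcl16 UMI in at most 3.16% of cells, at median depths of 1688.5 to 3566 UMIs.

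**Figure D4:**
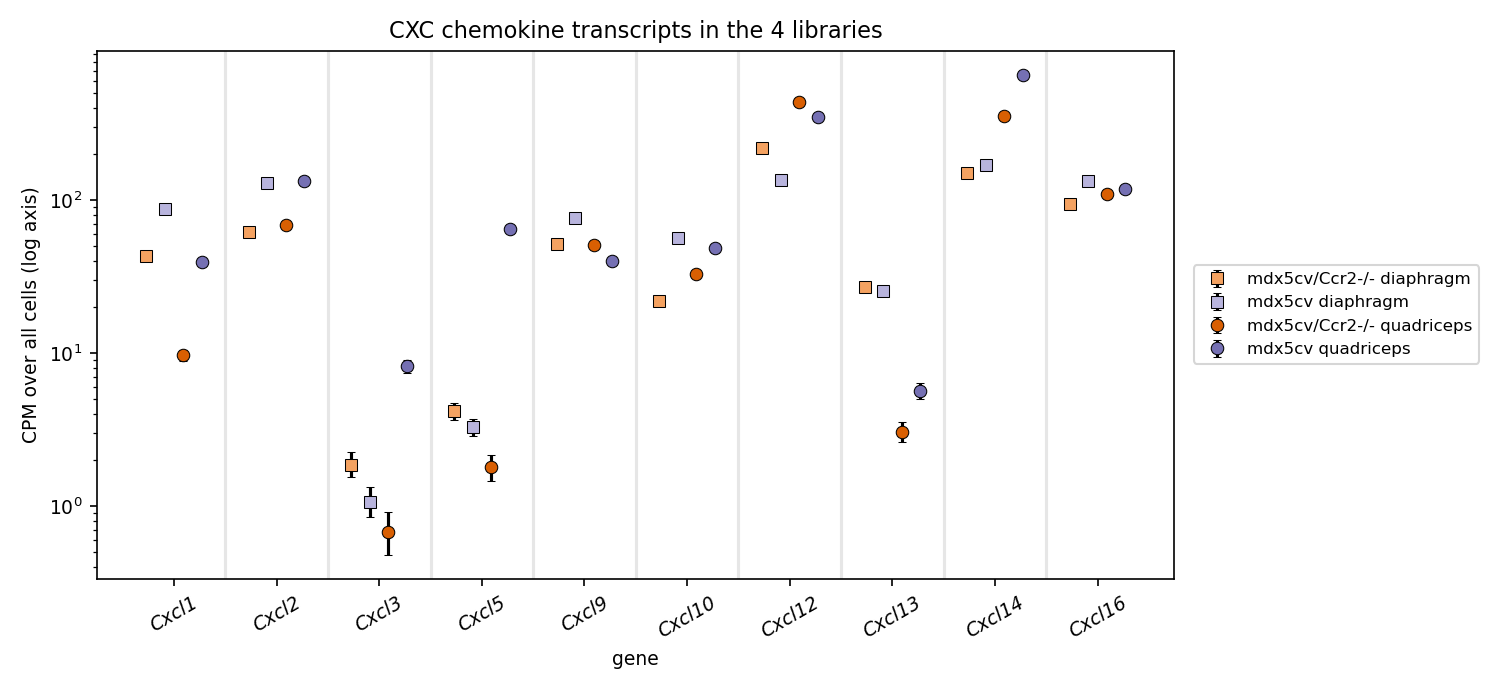
Level of each gene over all cells of a library in CPM on a log axis, with exact 95% Poisson error bars that cover counting error only; squares are diaphragm, circles quadriceps. The mdx5cv quadriceps library stands apart for Cxcl3 and Cxcl5, and both diaphragm libraries lie above both quadriceps libraries for Cxcl1 and Cxcl13.

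Over all cells, all 10 genes had at least 50 UMIs in each pair of libraries and none was 2-fold higher in the knockout. In diaphragm 3 of 10 were at least 2-fold lower in mdx5cv/Ccr2-/- than in mdx5cv, Cxcl1, Cxcl2 and Cxcl10, where 3.39% of all genes measured were that much lower and 1.24% higher. With every cell weighted alike the diaphragm Cxcl2 ratio was 0.702, inside 2-fold. In quadriceps 3 of 10 were at least 2-fold lower, Cxcl1, Cxcl3 and Cxcl5, beside 2.19% of all genes lower and 2.87% higher. The median log2 ratio of the 10, taken on CPM + 5, was -0.33 in diaphragm and -0.68 in quadriceps, beside 0.03 and 0.06 over all genes. Cxcl1 was the gene past 2-fold in both muscles. The dissociation list had medians of -0.57 in diaphragm and -0.54 in quadriceps over all cells, with 1 of 15 genes 2-fold lower in each.

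In FAPs 9 of the 10 were measured in diaphragm and all 10 in quadriceps. In diaphragm Cxcl1, Cxcl2 and Cxcl10 were at least 2-fold lower in mdx5cv/Ccr2-/-, beside 0.528% of all genes lower and 0.595% higher. In quadriceps Cxcl1, Cxcl2, Cxcl3, Cxcl5, Cxcl13 and Cxcl14 were at least 2-fold lower, beside 1.72% of all genes lower and 2.63% higher. The FAP Cxcl2 values were small, at 2.59 CPM in mdx5cv/Ccr2-/- diaphragm against 9.37 CPM in mdx5cv diaphragm, and 3.77 CPM in mdx5cv/Ccr2-/- quadriceps against 9.96 CPM in mdx5cv quadriceps. The dissociation list lay on the same side in diaphragm FAPs, where 15 of its 15 genes had a ratio below 1 and 1 of them was 2-fold lower, with a median log2 ratio of -0.58. In quadriceps FAPs 8 of 15 had a ratio below 1 and none was 2-fold apart, with a median of -0.15, and the part of the list in the FAP values was not tested. The quadriceps direction of Cxcl2 turned to a ratio of 1.35 when doublets were kept. In macrophages 1 of 9 measured was 2-fold higher in mdx5cv/Ccr2-/- diaphragm, Cxcl13 on 39 UMIs in each library, and 1 was lower, Cxcl9, beside 3.47% of all genes higher and 2.29% lower. Of the Cxcl13 UMIs in mdx5cv/Ccr2-/- diaphragm macrophages 1 cell held 32, and the ratio was 0 without the 5 highest cells. In quadriceps macrophages 1 of 8 was lower, Cxcl3, with 24 UMIs in mdx5cv/Ccr2-/- and 69 in mdx5cv, beside 1.95% of all genes lower and 4.15% higher; with cells weighted alike its ratio was 0.510, inside 2-fold. Endothelial cells had 1 of 4 measured lower in diaphragm, Cxcl9, beside 0.763% of all genes lower and 0.363% higher, and 0 of 6 past 2-fold in quadriceps, beside 0.364% lower and 1.17% higher.

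**Figure D5:**
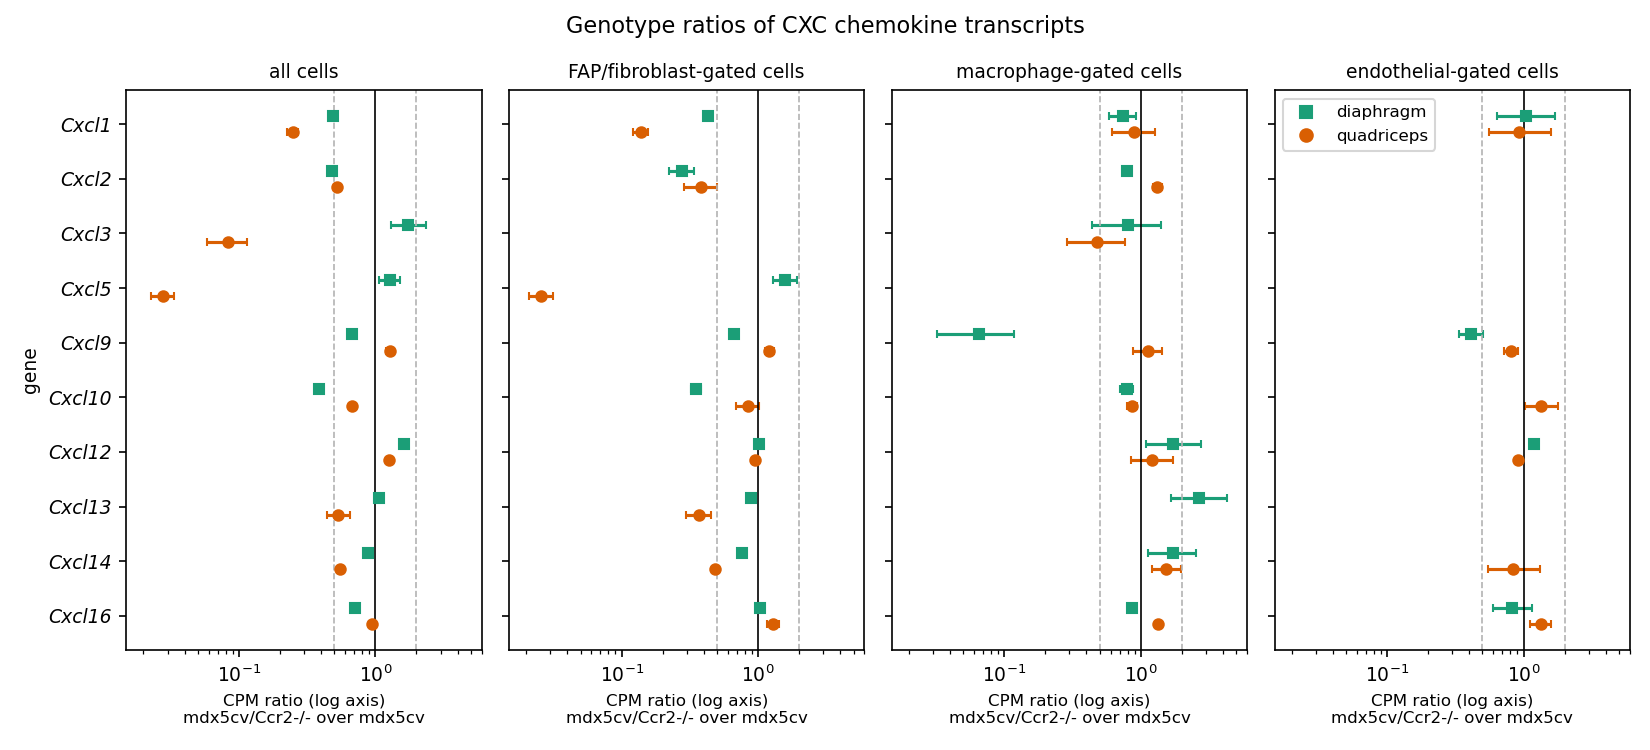
Ratio of CPM in mdx5cv/Ccr2-/- over mdx5cv (horizontal log axis) for each gene, over all cells and in 3 classes, for genes with at least 50 UMIs over both libraries and some in each. Squares are diaphragm, circles quadriceps, bars exact 95% counting intervals, and dashed lines mark 0.5 and 2. The quadriceps circles of Cxcl1 and Cxcl5 lie far left over all cells and in FAPs, and both Cxcl12 symbols lie close to 1 in FAPs.

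The muscles were compared within each genotype, from separate libraries. Over all cells of mdx5cv/Ccr2-/- mice, Cxcl1 (4.46), Cxcl3 (2.77), Cxcl5 (2.33) and Cxcl13 (8.85) were at least 2-fold higher in diaphragm and Cxcl12 (0.496) and Cxcl14 (0.420) lower, beside 5.09% of all genes higher and 10.2% lower. In mdx5cv mice Cxcl1 (2.25) and Cxcl13 (4.47) were higher in diaphragm, and Cxcl3 (0.131), Cxcl5 (0.0506), Cxcl12 (0.390) and Cxcl14 (0.261) lower, beside 6.57% higher and 7.32% lower. Cxcl1 and Cxcl13 were thus on the higher side and Cxcl12 and Cxcl14 on the lower side in both genotypes, while Cxcl3 and Cxcl5 lay on opposite sides. The Cxcl3 and Cxcl13 ratios rested on few cells. In mdx5cv/Ccr2-/- the 5 highest cells held 72.6% of 113 Cxcl3 UMIs in diaphragm and 75% of 40 in quadriceps. In mdx5cv quadriceps 1 cell held 200 of 411. In mdx5cv/Ccr2-/- 1 cell held 887 Cxcl13 UMIs in diaphragm, and 1 cell held 90 of 180 in quadriceps. The knockout Cxcl12 ratio was 0.542 with TMM scaling, inside 2-fold. FAPs gave 2 of 9 measured higher in diaphragm in mdx5cv/Ccr2-/-, Cxcl1 (3.50) and Cxcl13 (5.16), and Cxcl12 and Cxcl14 lower, beside 5.08% of all genes higher and 5.74% lower. In mdx5cv FAPs Cxcl10 (3.04) and Cxcl13 (2.12) were higher and Cxcl3, Cxcl5, Cxcl12 and Cxcl14 lower, beside 5.38% higher and 5.11% lower.

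In macrophages 8 of the 10 were measured in each genotype. In mdx5cv/Ccr2-/- macrophages Cxcl1 (4.86), Cxcl2 (3.68) and Cxcl13 (4.99) were at least 2-fold higher in diaphragm and Cxcl9 (0.216) lower, beside 3.32% of all genes higher and 2.82% lower. In mdx5cv macrophages Cxcl1 (5.81), Cxcl2 (6.13) and Cxcl9 (3.71) were higher and none lower, beside 2.98% higher and 1.45% lower. The Cxcl13 and Cxcl9 ratios rested on few cells. In mdx5cv/Ccr2-/- 1 macrophage held 32 of 39 Cxcl13 UMIs in diaphragm, and 1 held 18 of 19 in quadriceps. Cxcl9 had 11 UMIs in mdx5cv/Ccr2-/- diaphragm macrophages, and in mdx5cv diaphragm 9 macrophages held 376 of 453. Among macrophages with a Cxcl2 UMI, 7.02% to 12.4% (over the 4 libraries) had a Cxcl1 UMI, against 0.543% to 2.44% of those without. The cells with a Cxcl2 UMI were deeper in each library, with median depths of 7270 to 15201.5 UMIs against 6614 to 12162.5 UMIs, and the part of depth was not tested. The dissociation list was higher in diaphragm in FAPs too, where 12 of 15 genes in mdx5cv/Ccr2-/- and 13 of 15 in mdx5cv were at least 2-fold higher, with medians of 1.37 and 1.85, beside 5.08% and 5.38% of all genes. Its part in the Cxcl1 values was not tested.

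In endothelial cells, the background class for Cxcl1 above, its few UMIs were also past 2-fold higher in diaphragm in both genotypes. The ratio was 3.98 in mdx5cv/Ccr2-/- on 49 and 42 UMIs and 3.59 in mdx5cv on 29 and 26 UMIs. Of 6 measured in mdx5cv/Ccr2-/-, Cxcl10 (0.415) and Cxcl14 (0.379) were lower, beside 0.867% of all genes higher and 2.49% lower. Endothelial cells are also the background class for Cxcl14, with 98 of its UMIs over the 4 libraries and at most 5.24 CPM. That ratio is therefore one of background counts. Of 5 measured in mdx5cv none was lower, beside 1.09% higher and 1.76% lower. The dissociation list was higher in diaphragm endothelial cells too. There 7 of 15 genes in mdx5cv/Ccr2-/- and 9 of 15 in mdx5cv were at least 2-fold higher, with medians of 0.80 and 1.02. Its part in the endothelial values was not tested.

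A list of 13 NF-kB and interleukin-1 response genes, 12 of them measured, was set beside the Cxcr2 ligands. In diaphragm FAPs 1 of 12 was at least 2-fold lower in mdx5cv/Ccr2-/-, Il6 (0.433), and none higher, with a median log2 ratio of -0.30, beside 0.528% of all genes lower and an all-gene median of 0.02. In quadriceps FAPs 4 of 12 were lower, Ccl2 (0.313), Ccl7 (0.317), Ptx3 (0.437) and Ptgs2 (0.460), and none higher, with a median of -0.43, beside 1.72% of all genes lower and an all-gene median of 0.03. Ccl2 and Ccl7 are CC chemokines, Ptx3 a soluble pattern receptor and Ptgs2 the inducible prostaglandin synthase. The first 3 are also gate genes of the Ccl7 Ptx3 subclass, whose 30 quadriceps knockout cells compare with 104 in mdx5cv.

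The receptors were counted in leukocytes for the most part. Over the 4 libraries Cxcr2, the receptor of Cxcl1, Cxcl2, Cxcl3 and Cxcl5, stood at 1031 CPM in neutrophils, 0.226 CPM in FAPs, 0.379 CPM in macrophages and 0.479 CPM in endothelial cells. Cxcr3 stood at 63.9 CPM in T cells, 56.5 CPM in NK cells and 46.1 CPM in cDC1, Cxcr5 at 98.3 CPM in B cells, and Cxcr6 at 770 CPM in gamma-delta T cells and 330 CPM in T cells. Cxcr4 stood at 1075 CPM in neutrophils, 132 CPM in B cells and 113 CPM in macrophages. The scavenger Ackr3, which removes Cxcl12, stood at 134 CPM in lymphatic cells, 40.8 CPM in endothelial cells and 39.0 CPM in FAPs.

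Of 16 genes of the pathway list, receptors, scavengers, other ligands and processing enzymes, 15 were in the files and Cxcl11 was not analysed here. Values of these genes are over all cells here unless a class is named, so the mix of classes enters them. In diaphragm 2 of 12 measured were at least 2-fold lower in mdx5cv/Ccr2-/-, the platelet chemokine Ppbp (0.327) and Cxcr5 (0.490), and none higher, beside 3.39% of all genes lower and 1.24% higher. In quadriceps 3 of 11 were lower, Ppbp (0.264), Cxcr2 (0.351) and Cxcr4 (0.496), and none higher, beside 2.19% lower and 2.87% higher. Cxcr2 stood at 0.531 CPM in mdx5cv/Ccr2-/- diaphragm against 0.497 CPM in mdx5cv diaphragm, and at 2.32 CPM in mdx5cv/Ccr2-/- quadriceps against 6.62 CPM in mdx5cv quadriceps. Ackr3 stood at 45.1 CPM in mdx5cv/Ccr2-/- diaphragm against 26.3 CPM in mdx5cv diaphragm, and at 14.3 CPM in mdx5cv/Ccr2-/- quadriceps against 23.3 CPM in mdx5cv quadriceps. The mdx5cv quadriceps library was thus the high one for Cxcr2, as it was for Cxcl5 and Cxcl3. In mdx5cv/Ccr2-/- 3 of 12 were at least 2-fold higher in diaphragm than in quadriceps, Ackr3 (3.15), Cxcr5 (3.004) and Cxcr6 (2.16), and 3 lower, Ackr1 (0.219), Cxcr2 (0.229) and Ppbp (0.249), beside 5.09% of all genes higher and 10.2% lower. In mdx5cv 2 of 12 were higher, Cxcr5 (7.81) and Cxcr6 (2.97), and 4 lower, Cxcr2 (0.0751), Ppbp (0.200), Ackr1 (0.279) and the platelet and macrophage chemokine Pf4 (0.371), beside 6.57% higher and 7.32% lower. Genotype ratios of the list were also counted within classes. FAPs had 0 of 7 past 2-fold in diaphragm and 4 of 6 lower in quadriceps, beside 1.72% of all genes lower. Macrophages had 1 of 7 higher and 1 lower in diaphragm, beside 3.47% higher and 2.29% lower. In quadriceps macrophages 2 of 7 were lower, beside 1.95%. Endothelial cells had 0 of 6 past 2-fold in diaphragm and 1 of 6 lower in quadriceps, beside 0.364%.

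The genes most like each member were taken as the 3 with the highest Pearson correlation of log2(CPM + 5) over 46 sums of a class in a library, from 17 classes. These points share libraries and depth, so the values are descriptions. Cxcl12 was most like Pcdh19 and Hecw2 (both 0.94), Cxcl2 most like Tnf (0.92), Cxcl13 most like Serpina3c (0.91), and Cxcl14 most like Mmp3 (0.89). Cxcl16 was most like Guca1a (0.89), and Zmynd15, the gene that overlaps it on the other strand, had 0.87. Cxcl5 was most like Fetub (0.84), Cxcl3 most like Tnfsf14 (0.84) and Cxcl10 most like Ccr2 (0.80), the gene deleted in 2 of the libraries. Cxcl1 and Cxcl9 had no close match, with highest values of 0.70 for Rtl3 and 0.65 for Pdia5.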

How the data were processed

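The deposited matrices hold raw UMI counts for each gene and cell barcode. Cell Ranger 6.1.2 produced them, per the file headers, and the build was mm10, per the submitters' processing notes. No annotation release, intron setting or strand setting is given in the sources used here. Filters removed barcodes under 500 UMIs, under 300 detected genes or over 15% mitochondrial UMIs. The top Scrublet doublet scores (scanpy 1.11.5) were removed at 0.8% for each 1000 barcodes, 2508 in all, which with the filters left 28569 of 33554 barcodes. A cell entered the class with the highest scaled marker score among classes with UMIs of at least 3 of their markers. Subclasses were chosen in the same way within FAPs, macrophages and endothelial cells. In all, 611 mixed and 1179 ungated cells entered no class. UMIs were summed by library and class and divided by the summed total (CPM). Ratios have exact conditional binomial 95% intervals and are called past 2-fold with at least 50 UMIs over both libraries. Median log2 ratios were taken on CPM + 5, which draws the ratios of scarce genes toward 1. The code was tested on simulated counts. Leiden clusters (leidenalg 0.10.2, 30 clusters) gave the same class name to 94.2% of gated cells. The clusters were named with the same markers, so part of this agreement is built in. No cluster was named for classical monocytes, NK cells, gamma-delta T cells, migratory dendritic cells or smooth muscle. TMM came from edgeR 4.0.16. Gene positions are from the GENCODE annotation of GRCm38. All 10 members are named, and other genes come from 4 fixed lists or from the likeness rule. The NF-kB and interferon-response motifs were first searched with 1 further base (a leading G, a trailing A) and were shortened after those matches were seen; the longer forms lacked the GGAATTTCC match in Cxcl10 and the interferon-response match in Cxcl9. The members and lists were chosen with earlier results of these data known.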

Additional observations from a re-analysis of the deposited data

Results flagged for a closer look

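For 8 values the genotype ratio, mdx5cv/Ccr2-/- over mdx5cv, lay below 1 in one muscle and above 1 in the other, with both counting intervals clear of 1. With 1 library for each group the difference between muscles was not tested. Over all cells Cxcl3 had a ratio of 1.75 in diaphragm and 0.0827 in quadriceps, Cxcl5 had 1.27 in diaphragm and 0.0277 in quadriceps, and Cxcl9 had 0.673 in diaphragm and 1.27 in quadriceps. In FAPs Cxcl5 had a ratio of 1.58 in diaphragm and 0.0257 in quadriceps, and Cxcl9 had 0.664 in diaphragm and 1.21 in quadriceps. In macrophages Cxcl2 had a ratio of 0.796 in diaphragm and 1.33 in quadriceps, and Cxcl16 had 0.869 in diaphragm and 1.34 in quadriceps. In endothelial cells Cxcl12 had a ratio of 1.19 in diaphragm and 0.916 in quadriceps. Without the 5 highest cells of each library the Cxcl3 ratio in diaphragm was 0.787, on the other side of 1.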

How the results depend on the processing

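No paired analysis was possible because the groups compared share fewer than 2 replicate numbers; a fit of genotype with muscle as a term was not run. The count of members past 2-fold over all cells in quadriceps was 3 and became 5 with TMM scaling and 5 without the 5 highest cells, both adding Cxcl2 and Cxcl13. In quadriceps macrophages it was 1 and became 0 with cells weighted alike, 3 with at least 1 UMI, 2 with Leiden classes and 0 without the 5 highest cells; in diaphragm macrophages it was 2 and became 1 with Leiden classes. In quadriceps endothelial cells it was 0 and became 3 with at least 1 UMI. In diaphragm endothelial cells it was 1 and became 2 with all deposited barcodes, 2 with doublets kept, 2 with at least 20 UMIs and 5 with at least 1 UMI. The ratios checked were genotype and muscle ratios over all cells, and genotype ratios in FAPs, macrophages and endothelial cells. Muscle ratios within a class, ratios in other classes and ratios within subclasses were not checked. Among the checked ratios past 2-fold, 2 turned to the other side of 1. These were the FAP Cxcl2 ratio in quadriceps, 1.37 with all deposited barcodes and 1.35 with doublets kept, and the macrophage Cxcl13 ratio in diaphragm, 0 without the 5 highest cells. The cause was not tested. Of the 86 ratios checked, 85 stayed on their side of 1 with TMM scaling, 79 with all barcodes, 79 with doublets kept and 81 with cells weighted alike, and 79 of 85 without the 5 highest cells. Of the 31 checked ratios past 2-fold, 30 stayed past it with TMM scaling, 30 with doublets kept, 29 with all barcodes and 26 with cells weighted alike. Of 30, 26 stayed without the 5 highest cells, an alternative chosen after seeing the data. Of 13 within classes, 12 stayed with Leiden classes and 13 with gates of 4 markers. The class with the highest level was kept for 10 of 10 genes with the stricter gate and 8 of 10 with Leiden classes. No cluster was named for classical monocytes, the gated class with the highest Cxcl10 level. Cxcl3 rests on 646 UMIs in all, and genes with UMIs in few cells have more error than their intervals show.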
